A study of Caenorhabditis elegans with 10 samples.

Results

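The nuclear hormone receptor genes of Caenorhabditis elegans were taken as every protein-coding gene of the deposited table whose name is nhr followed by a number. This gave 269 genes, after repeated rows were removed, of 46536 genes in the table. The samples were germline tumours cut by hand from adults at 1 day of age, after synchronised larvae had grown for 48 h at 25 °C. There were 5 libraries from worms with the allele ar202 of glp-1, called GLP-1 ON, and 5 from worms with its allele q175, called GLP-1 OFF, written ON and OFF beside values. GLP-1 is the Notch receptor of the germline. The ar202 allele is a gain-of-function allele and q175 is a null allele. Both groups also carry the mutations gld-1(q485) and gld-2(q497), with which germ cells keep dividing in either state of the receptor, so the comparison asks which transcripts follow Notch signalling in germ cells that proliferate anyway. Each GLP-1 state is 1 genotype in the Bristol strain, so a difference in strain background cannot be told apart from the GLP-1 state.

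Nuclear hormone receptors are transcription factors with a zinc-finger domain that binds DNA and a domain that can bind small lipophilic molecules such as sterols and fatty acids. The family is far larger in C. elegans than in flies or mammals, and most of its members derive from ancestors related to the vertebrate receptor HNF4. Well studied members act in the intestine on fat and nutrient use, in the epidermis on moulting, and in the response to toxins and microbes. Their outputs depend on cofactor proteins, among them corepressors of the NCoR and SHARP type and the Mediator subunit MDT-15.

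Levels are the authors' CPM, the reads of a gene scaled to a total of 1 M reads in genes. The ON libraries held 29.4 ± 8.61 M such reads, against 23.8 ± 4.08 M for the OFF libraries (SD, n = 5 each). At these depths 1 read was worth 0.0260 to 0.0571 CPM. The share of ribosomal RNA was 44.6 ± 3.65% in ON, against 44.1 ± 5.10% in OFF. The labels were checked on glp-1 itself, which lay at 206 to 273.7 CPM in the ON libraries and 69.7 to 101 CPM in the OFF libraries, although the 2 alleles could also change their own transcript. The tissue label was checked on germline genes: all 10 listed germline markers passed the level filter, and their summed level was 2463 to 3440 CPM in ON, against 2396 to 3419 in OFF. Among them fbf-1 was called lower in ON (limma log2 difference -0.34).

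Few nuclear hormone receptor genes were expressed in these tumours. A gene was taken as expressed, and tested, when it reached 1 CPM in 5 or more of the libraries. This held for 17 of 269 nuclear hormone receptor genes (6.32%), against 6417 of 20112 protein-coding genes in the table (31.9%). A further 48 genes of the family had 0 reads in all 10 libraries (17.8%, against 15.96% of protein-coding genes), 168 had a read in some libraries, and 53 had a read in every library, the 17 expressed genes among them. The median of the mean level was 0.0161 CPM over the family and 0.0700 CPM over all protein-coding genes. By mean level over the 10 libraries, 5 genes of the family reached 10 CPM, 11 lay between 1 and 10 CPM and 43 lay between 0.1 and 1 CPM. With 0.5 CPM as the minimum 24 genes would count as expressed, and with 2 CPM 13 would.

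**Figure D1:**
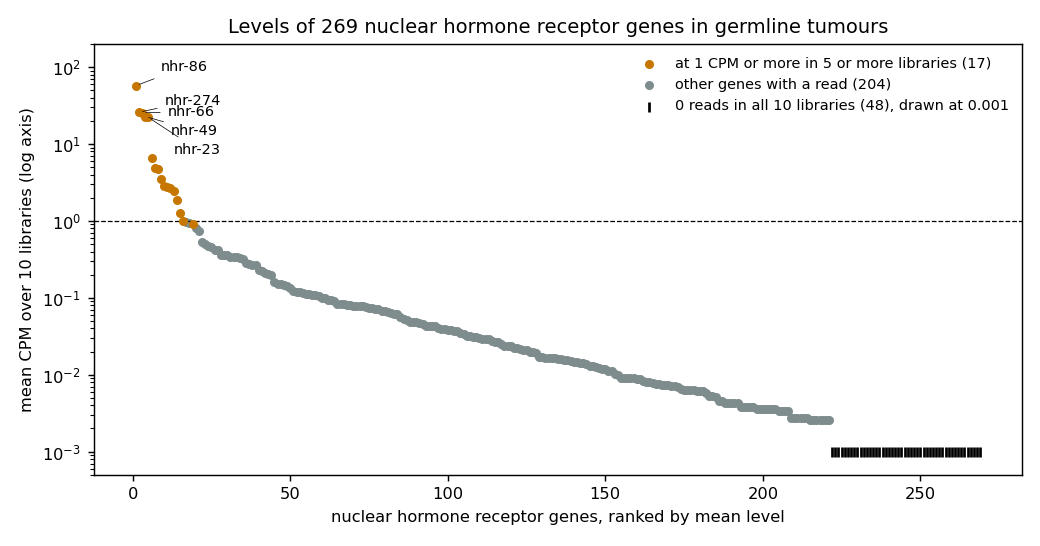
Mean CPM over 10 libraries (log axis) of the 269 nuclear hormone receptor genes, ranked from highest to lowest; orange points are the 17 expressed genes, grey points the other genes with a read, and ticks at 0.001 the 48 genes without a read. The 5 genes at the top, nhr-86, nhr-274, nhr-66, nhr-49 and nhr-23, stand at 22.2 CPM or more, and the dashed line marks 1 CPM.

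The 17 expressed genes held 91.6% of the reads of the family, and nhr-86 alone held 27.7%. Divided by the summed exon length of the gene, nhr-86 led with 40.6 CPM per kb, followed by nhr-274 with 12.8, nhr-49 with 10.7, nhr-23 with 8.78 and nhr-66 with 5.31 CPM per kb. The level of nhr-86 per kb was above that of 74.4% of 6406 expressed protein-coding genes, whose median was 22.3 CPM per kb. The level of nhr-274 per kb was above that of 32.9% of them. The summed level of the whole family was 185 ± 14.9 CPM in ON, against 229 ± 21.7 in OFF (SD, n = 5 each), a ratio of 0.810. The ON libraries spanned 169 to 207 CPM and the OFF libraries 206 to 257 CPM, so the groups overlapped by 1 library each. Without nhr-86 the summed level was 138 ± 13.7 CPM in ON, against 161 ± 15.7 in OFF (SD, n = 5 each), so much of the fall lay in this 1 gene.

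The family is concentrated on chromosome V, and its genes there were seldom expressed. Of 269 genes, 166 lie on chromosome V in the Ensembl annotation of WBcel235, and 7 of these 166 were expressed (4.22%), against 18.2% of all protein-coding genes on V. On the X chromosome 1 of 23 was expressed (4.35%, against 6.61% of protein-coding genes), and on chromosome I 3 of 23 (13.04%, against 54.1%). The share was lower in the family than among all protein-coding genes on each of the 6 chromosomes. Expressed genes lay further from the nearest other member than the other genes did, by a margin that depends on how distance is measured. The chromosomes were pooled for this, and 7 of the 17 expressed genes lie on V, against 166 of all 269. The median distance from the middle of a gene to that of the nearest other member was 55109.5 bases for expressed genes and 5440.0 bases for the others. Within 10 kb of another member, middle to middle, lay 2 of 17 expressed genes (nhr-49 and nhr-109) and 150 of 252 other genes. Measured between the nearest ends, 5 of 17 expressed genes (29.4%) and 155 of 252 other genes (61.5%) lay within 10 kb, the neighbours nhr-95 and nhr-145 now among the 5. Reads from near-identical neighbours may be divided or lost in counting, and how reads with several matches were treated is not given in the sources used here.

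**Figure D2:**
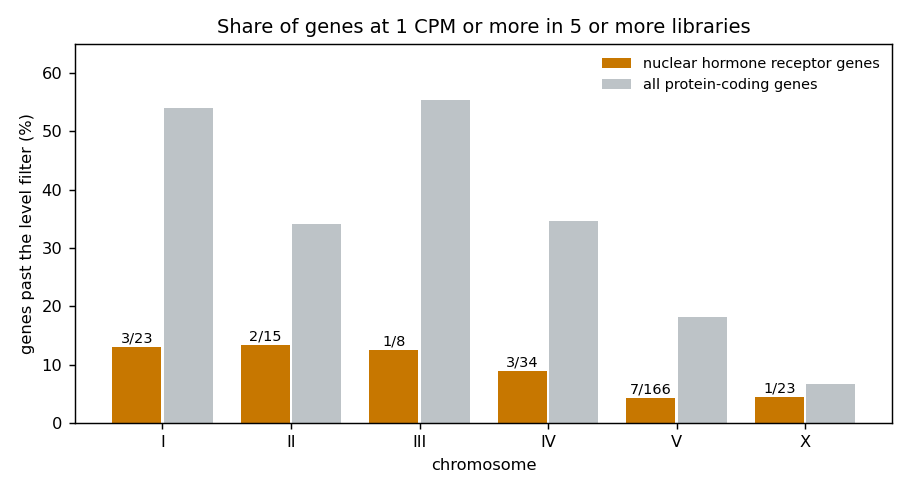
Share of genes (%) on each chromosome that reached 1 CPM in 5 or more libraries, for nuclear hormone receptor genes (orange, with the number expressed over the number on the chromosome) and for all protein-coding genes (grey). The orange bar is the lower of the pair on every chromosome, with 7 of 166 genes expressed on V.

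Between the GLP-1 states, 11 of the 17 expressed genes differed, 5 higher and 6 lower in ON. Higher were nhr-145, nhr-95, nhr-48, nhr-236 and nhr-15. Lower were nhr-10, nhr-47, nhr-23, nhr-49, nhr-86 and nhr-64. The test was limma on log2(CPM + 1), two-sided, with p-values adjusted by the Benjamini-Hochberg method over all 6833 expressed genes of the table and a threshold of 0.05. By the same rule 19.1% of all tested genes were called, 6.7% higher and 12.4% lower in ON. In 4 of the 17 genes the log2 difference was 1 or more in size and called, against 1.54% of all tested genes. A low gene passes the level filter through the group where it is high and then has to differ. This concerns nhr-145 and nhr-236, which reached 1 CPM in ON libraries only, and nhr-10, which reached it in OFF libraries only, so nothing is read from counts that include them. Among the 13 genes at 1 CPM or more in all 10 libraries 3 were higher and 4 lower, and 17.4% of all genes at that level were called (5.43% higher, 12% lower). Of these 13, 2 (nhr-95 and nhr-47) were called with a log2 difference of 1 or more in size, against 0.91% of all genes at that level. With TMM scaling, which resets the library sizes, 5 of the 17 genes were higher and 7 lower, where 34.8% of all tested genes were called (16.5% higher, 18.2% lower). The share of higher genes among all calls was then 47.5%, against 35.1% in the main test. The median log2 difference was -0.24 over the 17 genes and -0.05 over all tested genes.

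**Figure D3:**
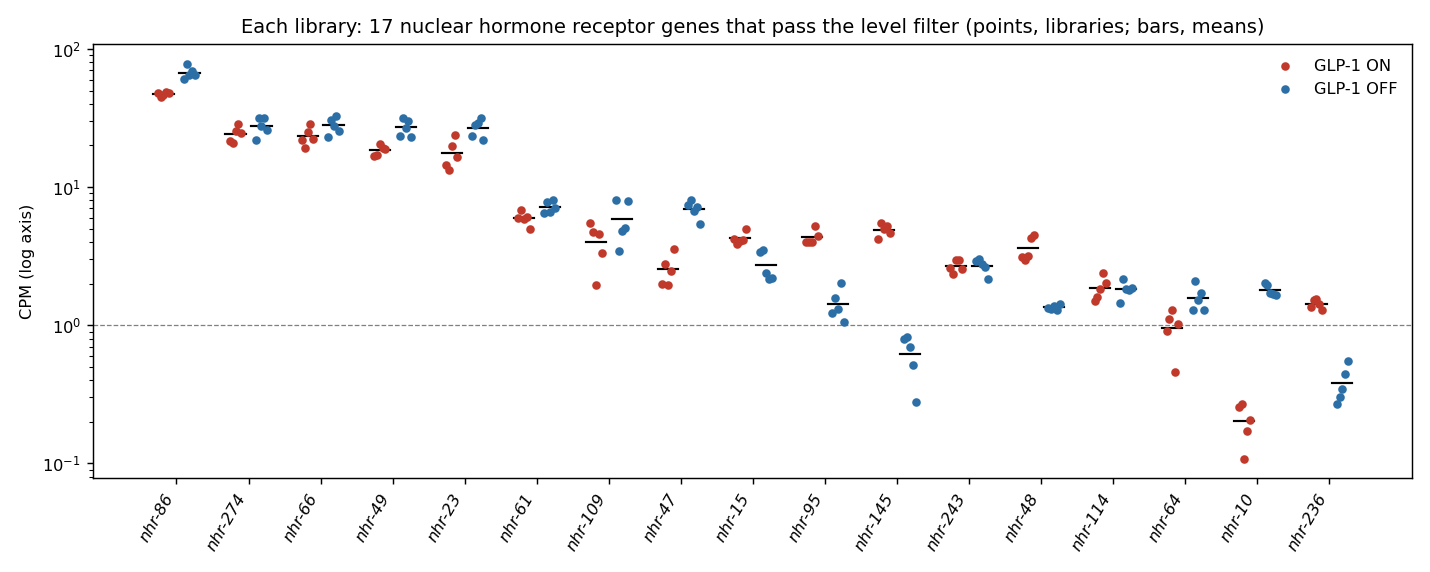
CPM (log axis) of the 17 expressed nuclear hormone receptor genes in each library, GLP-1 ON in red and GLP-1 OFF in blue, with short bars at the group means and a dashed line at 1 CPM. The ON points lie above all OFF points for nhr-145, nhr-95, nhr-48, nhr-236 and nhr-15, and below all of them for nhr-10, nhr-47, nhr-49 and nhr-86.

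In 9 of the 17 genes, all of them called, the ON and OFF libraries were fully apart (5 higher and 4 lower in ON), where 14.9% of all tested genes were (5.01% higher, 9.92% lower). The 9 include nhr-145, nhr-236 and nhr-10, for which the filter favours such a gap. In bulk tissue, fewer cells of a type and less RNA per cell cannot be told apart.

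The largest increase was in a pair of neighbours on chromosome V. The gene nhr-145 (V, 19087723 to 19092660, plus strand) stood at 4.18, 5.49, 4.99, 5.199 and 4.65 CPM in ON replicates 1 to 5, against 0.801, 0.825, 0.690, 0.512 and 0.277 CPM in OFF replicates 1 to 5. Every ON library was far above every OFF library, where the gene rested on 6 to 19 reads. The gene reached 1 CPM in ON libraries only, so the level filter favoured such a gap. The ratio of means was 7.90 and the log2 difference 1.87 (SE 0.117, limma adjusted p = 3.2e-10), the 7th largest increase among the 6833 tested genes. The gene nhr-95 (V, 19076604 to 19082641, minus strand) stood at 4.001, 4.002, 3.995, 5.26 and 4.44 CPM in ON and at 1.23, 1.56, 1.30, 2.01 and 1.06 CPM in OFF. No OFF library reached the lowest ON library. The ratio was 3.03 and the log2 difference 1.14 (SE 0.117, limma adjusted p = 4.5e-07). The 2 genes point away from each other and are 5081 bases apart, with no other annotated protein-coding gene between them. The next protein-coding gene to the right, Y39B6A.16, stood at 7.40 CPM in ON, against 7.77 in OFF, and was not called (limma adjusted p = 0.736). A further expressed member on the same arm, nhr-243 (V, 18895281 to 18900537), had 2.69 ± 0.272 CPM in ON, against 2.70 ± 0.329 in OFF (SD, n = 5; 95% limits of the log2 difference -0.22 to 0.21).

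The gene nhr-48, a relative of the sterol receptor gene daf-12, was the only expressed member on the X chromosome (15708213 to 15716875, plus strand). Its level was 3.09, 2.97, 3.16, 4.28 and 4.46 CPM in ON, against 1.33, 1.30, 1.38, 1.30 and 1.43 CPM in OFF. The OFF libraries had an SD of 0.0559 CPM, and all ON libraries were above them. The ratio was 2.67 and the log2 difference 0.95 (SE 0.112, limma adjusted p = 2.9e-06). The gene nhr-236 (chromosome IV, 2327126 to 2329640) stood at 1.43 ± 0.106 CPM in ON, against 0.383 ± 0.116 in OFF (SD, n = 5), with 25 to 57 reads in an ON library and 5 to 13 reads in an OFF library. Its log2 difference was 0.81 (limma adjusted p = 1.1e-05), with no overlap of the groups. It too reached 1 CPM in ON libraries only, so the level filter favoured such a gap. The gene nhr-15 (chromosome V, 312721 to 323650) rose by less, to 4.27 ± 0.417 CPM in ON, against 2.72 ± 0.662 CPM in OFF (limma adjusted p = 0.0037). Its lowest ON library was at 3.89 CPM and its highest OFF library at 3.52 CPM.

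The expressed receptors of fat and nutrient metabolism were either lower in ON or not called. Of 11 such genes, 5 were expressed, 3 were lower (nhr-10, nhr-49 and nhr-64) and 0 were higher, where 12.4% of all tested genes were lower and 6.7% higher. The median log2 difference of the 5 was -0.41, against -0.05 over all tested genes. Of the 3, nhr-10 passed the filter through OFF only, and nhr-64 lost its call in 7 alternatives. The median is the value of nhr-64 itself. The list was chosen with earlier results of these data known, so nothing is read from the count or the median. The gene nhr-10, which acts with nhr-68 to switch on an alternative route of propionate breakdown, showed the largest fall on the log2 scale among the 17 expressed genes. It stood at 0.255, 0.267, 0.108, 0.171 and 0.208 CPM in ON and at 2.03, 1.96, 1.72, 1.67 and 1.66 CPM in OFF. The ON values rest on 3 to 8 reads per library and the OFF values on 36 to 49 reads, and the groups lay far apart. The ratio of means, OFF over ON, was 8.96, and the log2 difference was -1.22 (SE 0.105, limma adjusted p = 3.3e-08). Its partner nhr-68 was not expressed, at 0.0291 CPM in ON, against 0.0480 in OFF. The gene acdh-1, which is repressed by vitamin B12 and activated through nhr-10 and nhr-68 in the intestine, was also below the filter, at 0.132 CPM in ON, against 0.225 in OFF.

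The gene nhr-49, a regulator of fatty acid desaturation and oxidation, fell (chromosome I, 9869651 to 9874680). The ON libraries had 16.9, 17.1, 20.6, 19.3 and 18.8 CPM and the OFF libraries 23.4, 31.9, 26.7, 30.3 and 23.1 CPM. All ON libraries were lower than all OFF libraries, with a log2 difference of -0.51 (SE 0.105, limma adjusted p = 0.0014). The fall in nhr-64 was weaker, at 0.956 ± 0.313 CPM in ON, against 1.58 ± 0.334 in OFF (SD, n = 5; log2 difference -0.41, limma adjusted p = 0.033). The groups overlapped by a small margin, and the call was lost on leaving out ON replicate 1 or 4, or OFF replicate 2, 3 or 4. This includes ON replicate 4, which held the lowest value of 0.457 CPM (log2 difference then -0.30, limma adjusted p = 0.096, and 0.056 to 0.120 over the alternatives without the call). The gene nhr-66, a partner of nhr-49, had 23.4 ± 3.59 CPM in ON, against 27.9 ± 3.87 in OFF, a log2 difference of -0.25 (limma adjusted p = 0.149). After TMM scaling it was -0.20 with a limma adjusted p of 0.040, so its call depends on the scale (adjusted p 0.031 to 0.329 over all alternatives). The gene nhr-114, which worms need for fertility on some bacterial diets, had 1.87 ± 0.361 CPM in ON, against 1.82 ± 0.259 in OFF, with 95% limits of the log2 difference from -0.22 to 0.26. The other 6 genes of the list, nhr-13, nhr-62, nhr-68, nhr-69, nhr-76 and nhr-80, were below the filter, at 0.0260 to 0.681 CPM in ON, against 0.0199 to 0.783 in OFF.

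The most abundant member, nhr-86, is known for its role in the innate immune response of the intestine. It fell in ON (chromosome V, 2061106 to 2066850). The ON libraries were tightly grouped at 48.0, 44.7, 46.7, 49.1 and 48.3 CPM, against 60.4, 78.2, 64.3, 69.1 and 65.3 CPM in OFF. The highest ON library was below the lowest OFF library, and the log2 difference was -0.50 (SE 0.092, limma adjusted p = 5.5e-04). Of the 6 listed receptors of stress, toxin and immune responses, nhr-86 was the only one expressed.

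Of the 10 listed receptors with clear counterparts in flies and vertebrates, 2 were expressed: nhr-48, described above, and nhr-23. The gene nhr-23, a counterpart of the ROR receptors, drives moulting in the epidermis and is also required for sperm formation. Its level was 14.5, 13.2, 19.9, 23.7 and 16.5 CPM in ON and 23.4, 28.2, 29.0, 31.4 and 21.9 CPM in OFF (chromosome I, 7214745 to 7221299). ON replicate 4 lay above OFF replicates 1 and 5, so the groups overlapped. The log2 difference was -0.60 (SE 0.136, limma adjusted p = 0.0033, exact permutation test, two-sided, p = 0.0238). The counterparts of other conserved receptors, nhr-6, nhr-25, nhr-41, nhr-67, nhr-85, nhr-91 and nhr-111, were at 0.153 CPM or less on average in either group. The remaining gene of the list, nhr-8, stood above these but also below the filter, and is described further below. Of the 8 listed receptors of development and moulting nhr-23 was the only one expressed, and the embryonic receptor gene nhr-2 had 0.418 ± 0.0872 CPM in ON, against 0.640 ± 0.120 in OFF (SD, n = 5).

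The gene nhr-47 (chromosome V, 5505253 to 5509956) showed the other fall of more than 1 on the log2 scale. It stood at 2.0004, 2.78, 1.97, 2.46 and 3.58 CPM in ON and at 7.47, 8.04, 6.67, 7.23 and 5.40 CPM in OFF, with no overlap. The log2 difference was -1.17 (SE 0.127, limma adjusted p = 9.9e-07), and OFF over ON the ratio was 2.72. Its exons overlap by 27 bases with those of hpo-15 on the other strand, which had 2.08 CPM in ON, against 3.45 in OFF. The use of strand in counting is not given in the sources used here, so reads in such overlaps cannot be told apart. The same holds for 22 bases of nhr-66 with serp-1.2 and 108 bases with the antisense gene anr-44, for 31 bases of nhr-86 with comt-3, for 15 bases of nhr-64 with C45E1.5 and for 5 bases of nhr-61 with W01D2.1. On the same strand, nhr-109 shares 53 bases with its relative nhr-273.

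Besides nhr-66, nhr-114 and nhr-243, the genes nhr-61, nhr-109 and nhr-274 were without a call. The gene nhr-274, next to nhr-86 in level per kb, had 24.3 ± 3.23 CPM in ON, against 27.7 ± 4.12 in OFF (SD, n = 5; 95% limits of the log2 difference -0.42 to 0.06). The gene nhr-61 had 5.93 ± 0.664 CPM in ON, against 7.20 ± 0.734 in OFF (limma adjusted p = 0.101). The gene nhr-109 varied widely within the groups, from 1.94 to 5.53 CPM in ON and from 3.43 to 8.06 CPM in OFF (limma adjusted p = 0.127).

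**Figure D4:**
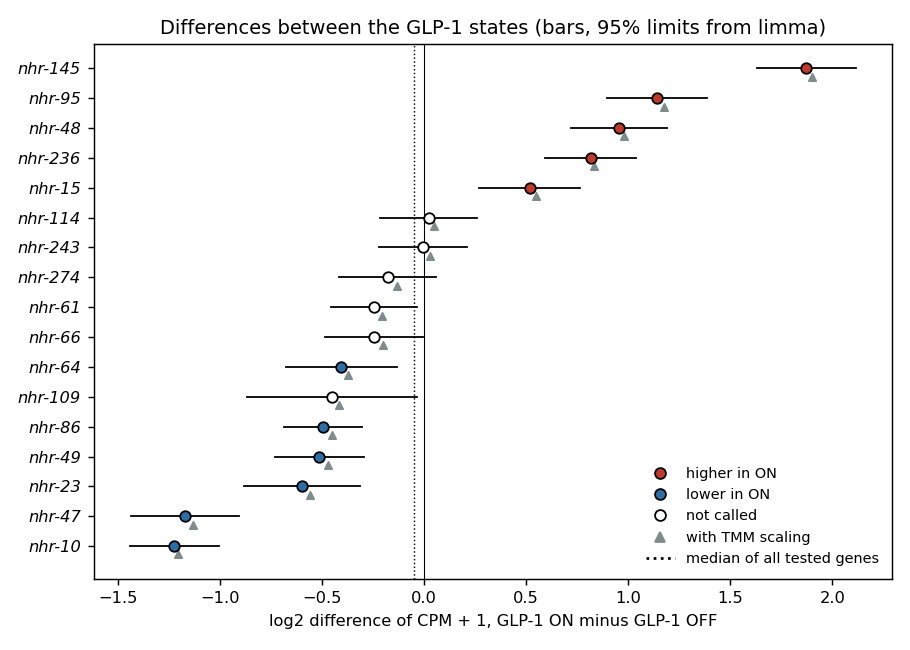
Log2 differences of CPM + 1, GLP-1 ON minus GLP-1 OFF, of the 17 expressed nuclear hormone receptor genes, with 95% limits from limma as bars; red and blue points are called higher and lower in ON, open points are not called, and triangles show the value after TMM scaling, with a dotted line at the median of all tested genes, -0.05. The values run from 1.87 for nhr-145 to -1.22 for nhr-10, and for the 11 called genes the sign is the same with TMM scaling.

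The libraries carry numbers that fall into 3 sets in the labels' descriptions, 56 to 58, 85 to 88 and 127 to 130, and each set holds both groups. The first and second sets hold 1 ON library and 2 OFF libraries each, and the third holds 3 ON libraries and 1 OFF library, so every difference within a set rests on a single library in 1 group. All 11 called genes kept their sign in each set, but the calls rest on these very libraries, so this adds no independent support. The log2 differences of nhr-145 were 1.52, 2.02 and 2.22 in the 3 sets, and those of nhr-10 were -1.25, -1.09 and -1.20. The values were -0.78, -1.14 and -0.14 for nhr-23 and -0.66, -0.70 and -0.23 for nhr-49. For nhr-86 they were -0.51, -0.57 and -0.44.

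Several of these receptors are best known from the intestine and the epidermis. Markers of such tissues were low beside the germline markers, but their summed levels reached those of the lower called receptor genes. The summed level of the 9 intestinal markers found in the table was 1.41 to 4.62 CPM in ON, against 1.74 to 12.2 in OFF. The mean of this sum was lower in ON, at 2.92 CPM, against 5.67 CPM in OFF, with overlapping groups. Only 1 of the 9 was expressed, with a limma log2 difference of -0.48 and no call. The intestinal factor gene elt-2 was at 0.0182 CPM in ON, against 0.0194 in OFF. The 7 epidermal markers other than nhr-23 summed to 1.52 to 3.20 CPM in ON, against 1.43 to 2.42 in OFF, muscle markers to 9.11 to 24.6 CPM in ON, against 11.9 to 20.98 CPM in OFF, and pharynx markers to 0.0727 to 3.08 CPM in ON, against 0.115 to 0.989 CPM in OFF. Somatic gonad markers summed to 23.3 to 31.8 CPM in ON, against 29.3 to 41.5 in OFF. They were led by the innexin gene inx-8, and of the 3 expressed ones lim-7 was called lower (log2 difference -0.36, limma adjusted p = 0.033). Neuron markers summed to 27.1 to 36.2 CPM in ON, against 23.4 to 34.6 in OFF, with unc-31 called higher, at 4.18 CPM in ON, against 0.481 CPM in OFF (limma log2 difference 1.80). Sperm markers summed to 14.2 to 15.9 CPM in ON, against 15.3 to 20.4 in OFF, with msp-3, msp-19 and msp-142 at 0 in all libraries. Of the 2 expressed sperm markers spe-9 was called higher (1.63 CPM in ON, against 0.470 CPM in OFF) and spe-44 lower (13.5 CPM in ON, against 17.8 CPM in OFF). The part of these cell types in the receptor differences was not tested.

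Of 204 receptor genes with a read but below the filter, 6 had groups without overlap (4 higher and 2 lower in ON), where 2.73% of all such genes in the table had none (1.53% higher, 1.2% lower). The share in the family was close to that of all such genes, so nothing is read from this count. The 6 genes are named only to describe it. The gene nhr-104 had 0.618, 0.724, 1.13, 0.857 and 0.857 CPM in ON, against 0, 0.0869, 0.192, 0.0682 and 0.184 CPM in OFF. Every ON library was above every OFF library, where the gene had 0 to 5 reads. The gene nhr-8, which acts in sterol balance and toxin resistance and is a relative of nhr-48, had 0.505 ± 0.0514 CPM in ON, against 0.174 ± 0.0644 in OFF (SD, n = 5). The gene nhr-20 stood just under the filter, with 0.513 ± 0.131 CPM in ON, against 1.36 ± 0.469 in OFF. The other 3 were nhr-121, at 0.634 CPM in ON, against 0.378 in OFF, nhr-96, at 0.132 CPM in ON, against 0.0543 CPM in OFF, and nhr-19, at 0.0716 CPM in ON, against 0.378 CPM in OFF. In an edgeR quasi-likelihood test on genes with at least 10 reads in at least 5 libraries, added after the data had been seen, 29 receptor genes were tested, 9 were higher and 8 lower in ON, where 32.1% of all genes tested were called (16.5% higher, 15.5% lower). Its calls below the filter of 1 CPM were nhr-104, nhr-8, nhr-121 and nhr-119 as higher and nhr-20 as lower (log2 fold change -1.27, edgeR adjusted p = 0.0014). The genes nhr-104 and nhr-8 had at most 5 and 6 reads in an OFF library, so they entered this test through ON alone and had to differ, and their calls support nothing. In the same way nhr-10, with too few reads in every ON library, entered through OFF alone. The gene nhr-121, at 0.378 CPM on average in OFF, lay near the minimum of 10 reads there, so the filter may favour its call too. Nothing is therefore read from the counts of 9 and 8.

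The genes for nuclear receptors with other names were not expressed. The sterol receptor gene daf-12 had 0.274 ± 0.130 CPM in ON, against 0.282 ± 0.112 in OFF (SD, n = 5), fax-1, sex-1 and unc-55 had 0.0260 to 0.0720 CPM in ON, against 0.0169 to 0.122 in OFF, and odr-7 had 0 reads. Of 5 genes for the making or removal of dafachronic acid, the steroid ligand of DAF-12, only the sterol methyltransferase gene strm-1 was expressed, at 3.39 ± 0.526 CPM in ON, against 2.89 ± 0.412 in OFF (limma adjusted p = 0.306), and dhs-16 and hsd-1 had 0 reads. Of 7 reported targets of receptors in the intestine, only acs-2, an acyl-CoA synthetase gene, was expressed, at 2.04 ± 0.310 CPM in ON, against 1.51 ± 0.373 in OFF (limma adjusted p = 0.114). The desaturase genes fat-5, fat-6 and fat-7 were at 0.0619 CPM or less on average in either group.

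Receptor cofactors and chaperones were all expressed, and 4 of 9 were lower and 1 was higher in ON, where 12.4% of all tested genes were lower and 6.7% higher. The median log2 difference was -0.36, against -0.05 over all tested genes. Over the alternatives 2 to 5 of the 9 were lower and 0 to 3 higher, and the calls of mdt-15, hda-1 and daf-21 did not hold in every fit. This list too was chosen with earlier results of these data known, so nothing is read from the count or the median. The largest change was in gei-8, which encodes a corepressor of the NCoR and SMRT type. Its level was 1.75, 2.13, 2.19, 1.66 and 2.39 CPM in ON and 7.79, 12.7, 9.62, 8.97 and 6.78 CPM in OFF. The groups lay far apart, with a ratio, OFF over ON, of 4.53 and a log2 difference of -1.73 (SE 0.131, limma adjusted p = 6.1e-09). It was -1.998, -1.71 and -1.35 in the 3 sets of library numbers. The gene din-1, whose SHARP-like product is a corepressor of DAF-12, had 0.982, 1.14, 0.783, 1.03 and 1.09 CPM in ON and 4.22, 1.87, 2.45, 3.48 and 1.11 CPM in OFF. OFF replicate 5 lay within the ON range, and the OFF libraries spread widely. The log2 difference was -0.78 (SE 0.177, limma adjusted p = 0.0031), and it was -0.96, -0.88 and -0.10 in the 3 sets.

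The other changes among cofactors were small and did not hold in every fit. The gene mdt-15, whose Mediator subunit is a coactivator of NHR-49, had 41.3 ± 7.82 CPM in ON, against 54.8 ± 7.88 in OFF (SD, n = 5; log2 difference -0.41, limma adjusted p = 0.027). The histone deacetylase gene hda-1 had 39.1 ± 6.12 CPM in ON, against 50.6 ± 8.64 in OFF (log2 difference -0.36, limma adjusted p = 0.047). Both calls were lost on leaving out any of 5 libraries, which were replicates 1 and 2 of ON and replicates 2, 3 and 4 of OFF, with adjusted p-values up to 0.077 for mdt-15 and 0.127 for hda-1. They were also lost without a filter on low values (adjusted p 0.087 for mdt-15 and 0.132 for hda-1), and hda-1 was lost with a pseudocount of 5 CPM (adjusted p 0.051). The HSP90 chaperone gene daf-21 had 3431 ± 429.6 CPM in ON, against 2587 ± 443 in OFF (log2 difference 0.42, limma adjusted p = 0.023), a call lost without ON replicate 3, 4 or 5 or OFF replicate 5 (adjusted p up to 0.057), without a filter (0.103) and with a term for the set of library numbers (0.077). No call was made in the main test for the acetyltransferase gene cbp-1 (limma adjusted p = 0.069), the p23 co-chaperone gene daf-41, listed as ZC395.10 (0.432), and the SUMO genes smo-1 (0.694) and ubc-9 (0.112). In other fits cbp-1 was called lower in 10 alternatives (adjusted p 0.0076 to 0.189 over all of them), ubc-9 higher in 6 (8.6e-06 to 0.256) and ZC395.10 higher in 5 (0.0030 to 0.635).

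**Figure D5:**
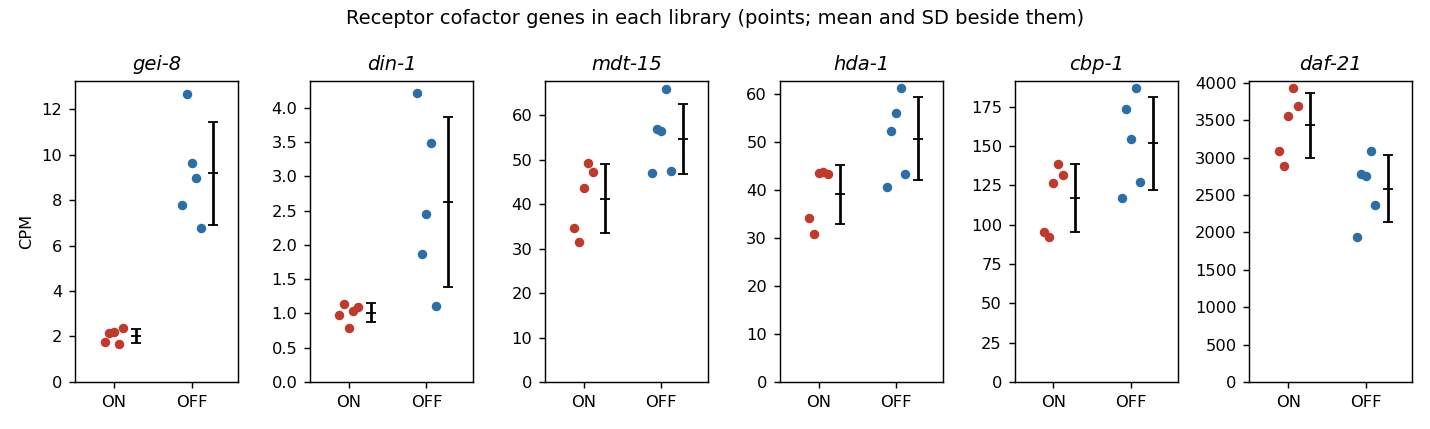
CPM of 6 receptor cofactor and chaperone genes in each library, GLP-1 ON in red and GLP-1 OFF in blue, with the mean and SD beside each group and every axis starting at 0. For gei-8 all ON libraries lie at or below 2.39 CPM and all OFF libraries at or above 6.78 CPM, while the groups overlap for the other 5 genes.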

How the data were processed

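Ribosome-depleted total RNA of 10 libraries was measured, 5 per group, with groups and replicate numbers from the sample titles. The authors deposited 1 table of gene-level signal, their CPM, per the labels. STAR 2.0.4b, featureCounts 1.4.5, Subread, edgeR and limma are named in the submitters' processing notes, and the genome build is not given in the sources used here. Of 46998 rows, 462 repeated a gene with the same values and were dropped. Dividing by the smallest value above 0 gave whole reads (within 0.01 read) for 100% of values in every library. The main test was limma 3.58.1 (R 4.3.3) on log2(CPM + 1), with the variance modelled as a trend, over the 6833 genes that reached 1 CPM in 5 or more libraries, called at a Benjamini-Hochberg adjusted p under 0.05. Log2 differences are on the log2(CPM + 1) scale, which understates changes of low genes. The limma p-values set the difference of group means against the spread between libraries of a group, moderated over all tested genes. The design text calls these libraries biological replicates. Replicate libraries differed by more than sampling noise (chi-square per degree of freedom of at least 16.2). The alternatives were other pseudocounts and filters, TMM and median-ratio scaling, edgeR 4.0.16, DESeq2 1.42.0, a replicate block, a term for the set of library numbers, each library left out, and, added after the data had been seen, CPM without rRNA genes and edgeR on genes with at least 10 reads in at least 5 libraries. The procedure was tested on simulated counts, where the share of false calls came out above the nominal threshold. Positions and exon lengths are those of Ensembl's WBcel235 annotation, matched by gene identifier for 46363 genes and for all 269 members. Members, lists and tests were chosen with earlier results of these data known. Named are all called members, the 10 highest by CPM and 5 highest per kb, tested members without overlap, up to 3 genes per list and the nuclear receptors with other names. Further genes, such as members below the filter, were named after their values were seen to describe a count.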

Additional observations from a re-analysis of the deposited data

Results flagged for a closer look

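In 3 of 92 groups of 5 libraries checked, 1 library stood apart from the others by Dixon's test at its 95% critical value, which chance gives in about 1 of 20 groups. The gene nhr-76, below the level filter, had 1.22 CPM in OFF replicate 2, while the remaining OFF libraries had 0.613 to 0.747 CPM. The gene nhr-142, also below the filter, had 0.162 CPM in ON replicate 3, while the remaining ON libraries had 0 to 0.0260 CPM. The gene smo-1 had 144 CPM in ON replicate 4, while the remaining ON libraries had 134.1 to 135.6 CPM.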

How the results depend on the processing

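The 11 called receptor genes kept their direction under every alternative, and 10 of them kept the call in each. The call of nhr-64 was lost in 7 alternatives, namely without a filter, with a term for the set of library numbers and on leaving out any of 5 libraries (adjusted p 0.056 to 0.120). Calls of receptor genes numbered 5 higher and 5 to 6 lower in every fit that left out a library, and 9 higher in edgeR on genes with at least 10 reads in 5 libraries, which tests more genes. Genes without a call changed sign around 0: nhr-243 was at 0.026 with TMM scaling, 0.035 with median-ratio scaling, 0.038 with edgeR, 0.054 with DESeq2, 0.045 with edgeR on genes with at least 10 reads, 0.0054 with the set term, 0.0023 in CPM without rRNA genes and -0.061 to 0.027 with a library left out, and nhr-114 was at -0.048 with the set term and -0.042 to 0.070 with a library left out. The uncalled nhr-66 was called lower in 5 alternatives, and nhr-109 with the replicate block and without ON replicate 1.

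Over all genes, 458 were higher and 847 lower (35.1% of calls higher). Higher calls numbered 1129 with TMM scaling (47.5%), 1219 with median-ratio scaling (51.4%), 1145 with edgeR, 1323 with DESeq2, 1362 with edgeR on genes with at least 10 reads and 869 without rRNA genes, and lower calls 1279 and 1343 in the last 2. With a library left out they ranged from 346 to 628 higher and from 620 to 1060 lower. Cofactors called higher numbered 0 without a filter and with the set term, 3 with either scaling, either edgeR fit and DESeq2, 2 without rRNA genes and 0 to 1 with a library left out. Those called lower numbered 2 without a filter and 2 to 5 with a library left out. The cause of these shifts was not tested.

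The replicate numbers were not taken to pair the libraries. Of 5 same-numbered pairs, 4 correlated at 0.173 to 0.461 and 1 at -0.024, and 3 ON libraries correlated best with the OFF library of their own number, a hint from the data and not from the design. With the replicate block 5 receptor genes were higher and 7 lower, and 517 and 1028 of all genes. Depth limits the genes below 1 CPM, where a library holds fewer than 17.5 to 38.5 reads, and a receptor gene at 0 may be expressed below detection.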

Other observations

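The table also lists 12 nuclear hormone receptor pseudogenes, which were not among the receptor genes counted above. None reached the level filter, and the highest was nhr-240, at 0.411 ± 0.111 CPM in ON, against 0.513 ± 0.143 in OFF (SD, n = 5), with overlapping groups. Neighbours were the protein-coding genes nearest to the 11 called receptor genes, up to 2 on each side. Left out were receptor genes and genes that overlap a called one, namely hpo-15 at nhr-47, comt-3 at nhr-86 and C45E1.5 at nhr-64. Of the neighbours 20 were expressed and 6 were called (30%, where 19.1% of all tested genes were called). Of the 6, 3 moved in the direction of the receptor gene and 3 in the other. In the same direction moved cnnm-4, 991 bases from nhr-23 (14.9 CPM in ON, against 23.4 in OFF), K10C3.4 near nhr-49 (15.2 CPM in ON, against 22.2 in OFF) and M01B12.4 near nhr-64 (44.3 CPM in ON, against 57.7 in OFF). In the other direction moved Y40B10A.9 near nhr-86 (2.23 CPM in ON, against 0.876 in OFF), T05C3.2 near nhr-47 (7.91 CPM in ON, against 3.304 in OFF) and F33E11.3 near nhr-15 (38.1 CPM in ON, against 67.7 in OFF). These neighbours were looked at after their values were seen.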
